A study of Saccharomyces cerevisiae with 7 samples.

Results

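A lawn of budding yeast grown on plates for 3 days was compared with liquid cultures grown to saturation, gene by gene and intron by intron. The members are the library titled as the wild-type lawn (1 library) and the libraries titled as wild-type saturated culture (2 libraries), which makes 3 of the 7 libraries analysed here. All 7 came from Saccharomyces cerevisiae BY4741, a laboratory strain (haploid, mating type a) with deletions at HIS3, LEU2, MET17 (also called MET15) and URA3, so the lawn and the saturated cultures share those deletions. All were started at an OD600 of 0.2 from overnight cultures and grown at 30 °C. The lawn grew on 10-cm plates of synthetic complete (SC) medium. The saturated cultures grew in SC medium and were collected once saturated; the labels give neither their age nor their density. A pair of log-phase libraries, collected in SC medium at an OD600 of 0.5, is given for levels, and together with the saturated pair it supplies the spread between replicates used in the tests. Cells treated with the drug rapamycin for 1 h and for 4 h gave 1 library each. These rapamycin libraries have no replicate and enter the fit of all 7 libraries, but their levels are not given. RNA depleted of ribosomal RNA was broken into short fragments and sequenced, and each library has deposited values for 6665 genes and 300 introns.

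Budding yeast ferments glucose to ethanol even in air, and glucose represses the genes for respiration and for other carbon sources. Once glucose is spent, the diauxic shift releases this repression: the kinase Snf1 and the activators Cat8, Sip4, Adr1 and the Hap2/3/4/5 complex turn on the uptake and oxidation of ethanol, acetate, lactate and fatty acids, the glyoxylate cycle and gluconeogenesis. Cells that exhaust their nutrients then enter stationary phase, store trehalose and glycogen, make protective proteins and change their wall. A lawn is a dense layer of cells on agar, in which cells differ in their distance from air and from nutrients, so its RNA is an average over such cells.

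The lawn library held 1312256 gene reads and the saturated libraries 4665149 (replicate 1) and 1019287 (replicate 2). Levels below are CPM (gene reads in proportion to the library total) scaled by TMM, a method that sets libraries to a common level from the bulk of genes, and a difference is a log2 difference, lawn minus saturated, with its standard error (SE) from edgeR. TPM, the deposited value corrected for length, is used to compare genes with each other. The 10 most abundant genes took 6.19% of gene reads in the lawn against 21.6% and 26.1% in the saturated libraries, and the TMM factors were 1.289, 0.7705 and 0.7811. With plain library totals in place of TMM, every difference moved up, and the median over all genes moved from -0.05 to 0.69. The saturated libraries differed from each other by over 2-fold at 12.1% of the 5275 genes compared, and each differed from the lawn by over 2-fold at 28.1% (replicate 1) and 25.9% (replicate 2). With a single lawn library, the test takes its spread from the saturated and log-phase pairs and assumes that lawns vary like them. Whether the libraries of a pair came from separate cultures is not in the labels, and the p-values measure only the spread between libraries, which may be technical. In bulk RNA, fewer cells of a type and less RNA per cell cannot be told apart.

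Of the genes deleted in the strain, LEU2 had no read in the lawn or the saturated libraries, URA3 stood at 0, 0.835 and 0 CPM and MET17 at 0, 3.34 and 3.77 CPM, while HIS3, whose deletion in this strain removes only part of the gene, stood at 143, 560 and 312 CPM. The 7 genes specific to mating type a summed to 361 CPM in the lawn and to 290 and 205 CPM in the saturated libraries. Of the alpha-specific genes, the pheromone gene MF(ALPHA)1 stood at 2.37, 1.95 and 1.26 CPM and the receptor gene STE3 at 12.4, 10.6 and 17.6 CPM, while the agglutinin gene SAG1 stood at 81.0 CPM against 50.4 and 47.7 CPM (0.72 ± 0.32, edgeR adjusted p = 0.191) and 28.9 and 32.4 CPM in log phase. The 18 genes of meiosis and sporulation summed to 155 CPM in the lawn and to 130 (replicate 1) and 157 CPM (replicate 2) in saturated culture, and none of the 15 tested passed with edgeR or DESeq2, 3 having an unadjusted edgeR p under 0.05.

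Across all genes, 294 of the 5827 tested were higher in the lawn (5.05%) and 416 were lower (7.14%), by edgeR's quasi-likelihood test with Benjamini-Hochberg adjustment at 0.05. In each of these 710 genes the lawn CPM lay outside the range of the saturated pair. Counts given for a gene list below are to be read beside the 5.05% higher and 7.14% lower of all genes. The direction split depended on scaling: with plain library totals 1387 genes were higher (23.8%) and 216 lower (3.71%), so that 86.5% of the called genes were higher, against 41.4% with TMM. Both saturated libraries bore on the count as well. Without saturated replicate 1 the counts were 477 higher (8.29%) and 722 lower (12.5%), and without saturated replicate 2 they were 698 higher (12%) and 938 lower (16.1%). Leaving out a saturated library leaves 1 library against 1 and takes the spread from the log-phase pair alone. A call kept there therefore says little about its dependence on that library. With the lawn and saturated libraries alone, 187 of the 294 genes and 225 of the 416 kept their call.

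Among the 12 largest rises, SIP18 (chromosome XIII, 611016 to 611255, R64), which encodes a protein that protects cells during desiccation, stood at 1911 CPM in the lawn against 8.90 and 28.9 CPM in the saturated libraries, a log2 difference of 6.89 ± 0.59 (SE; edgeR adjusted p = 0.000453). By TPM it was the most abundant gene of the lawn library, at 10710 TPM against 26.4 and 92.2 TPM. PDH1, which encodes a 2-methylcitrate dehydratase of propionate breakdown in mitochondria, stood at 622 CPM against 2.23 and 16.3 CPM (6.67 ± 0.77, edgeR adjusted p = 0.00143). SPG4, a gene needed for survival in stationary phase at high temperature, stood at 785 CPM against 5.57 and 17.6 CPM (6.41 ± 0.52). In each of these the lawn value was at least an order of magnitude above both saturated values. FBP1 and ICL1, SFC1, YAT1, CRC1 and POT1 are described with their pathways below, and the other members of the 12 largest rises were BOP2 (a gene of unknown function, 556 against 12 and 13.8 CPM), RGI2 (linked to respiratory growth, 31.3 against 0.557 and 1.26 CPM) and DPA10 (164 against 5.01 and 1.26 CPM). Leaving out a saturated library changed the size of these differences. Without saturated replicates 1 and 2 they were 6.00 and 7.78 for SIP18, 5.2 and 8.14 for PDH1 and 5.43 and 7.17 for SPG4. Without saturated replicate 1 they were 4.57 for RGI2 and 6.96 for DPA10.

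Among the 12 largest falls, PDC5 (chromosome XII, 410723 to 412414), a minor form of pyruvate decarboxylase, stood at 114 CPM in the lawn against 49050 and 30280 CPM in the saturated libraries, a difference of -8.44 ± 0.88 (edgeR adjusted p = 0.00098). The log-phase libraries held 36.6 and 45.0 CPM of PDC5, so the saturated pair stood above both the lawn and growing cells. THI4, an enzyme of thiamine synthesis, showed the same order, with 18.3 CPM in the lawn, 3432 and 2413 CPM in the saturated libraries and 3.16 and 6.58 CPM in log phase (-7.32 ± 0.69). PFK27, one of the enzymes that make fructose 2,6-bisphosphate, an activator of glycolysis, stood at 26.0 CPM against 1212 and 652 CPM (-5.17 ± 0.57). FSH1 (a serine hydrolase, 24.8 against 1366 and 740 CPM), YPS3 (an aspartic protease anchored at the surface, 17.7 against 529 and 1089 CPM) and FCY21 (a purine-cytosine permease, 3.55 against 93.5 and 144 CPM) were also among the 12. Without saturated replicate 2 the difference of YPS3 was -4.86. HXT1, HXT3, MIG2, SPI1, GPP2 and PHM8 complete the 12 and are described below.

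**Figure D1:**
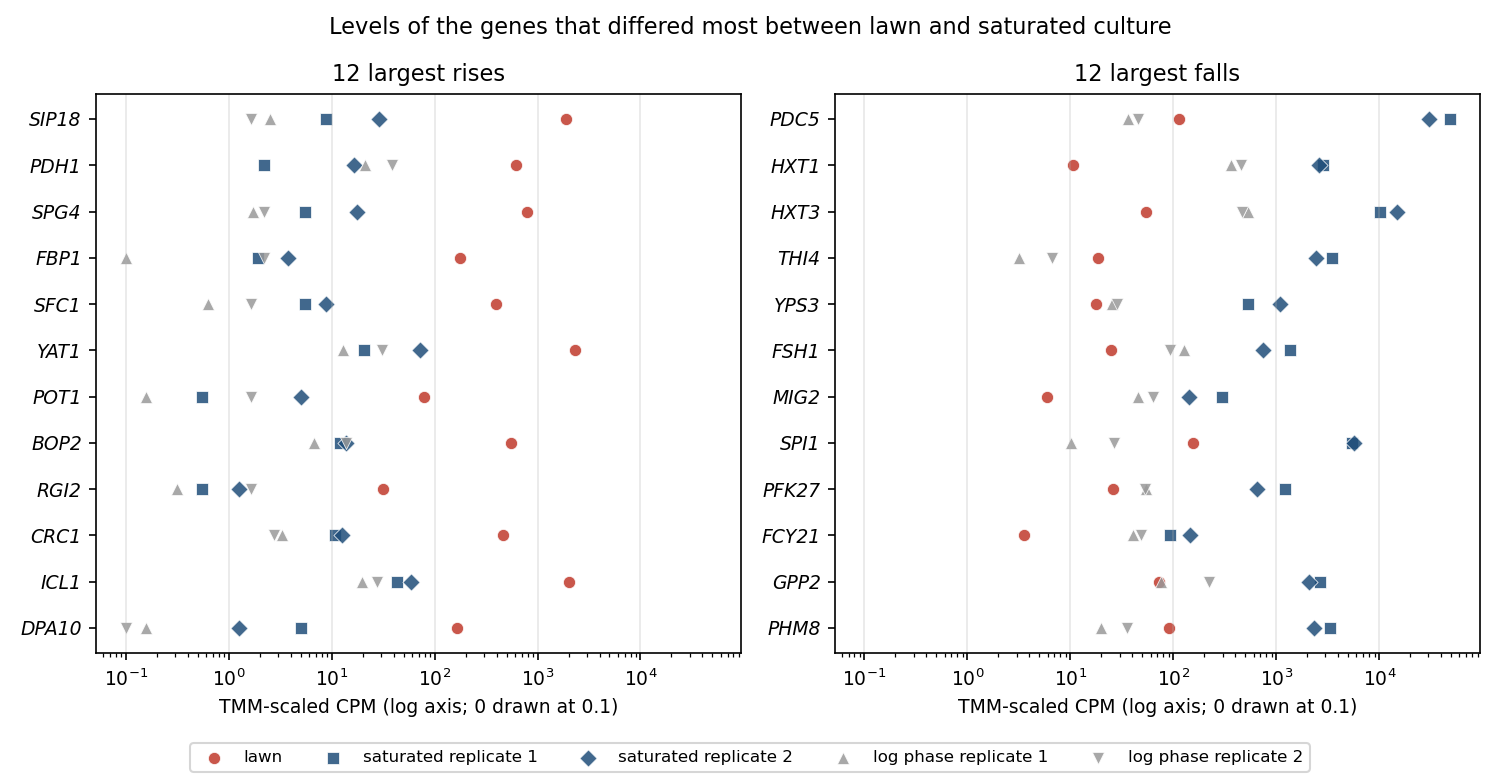
Scaled CPM (log axis) of the 12 largest rises and the 12 largest falls in the lawn, both saturated libraries and both log-phase libraries, with 1 point per library. The genes were chosen to have a lawn value outside the saturated range, so the lawn point lies outside the saturated pair by that choice. PDC5, THI4 and SPI1 are far higher in the saturated pair than in log phase.

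Calls on hexose transporters went in both directions. HXT1, a low-affinity transporter induced by high glucose, stood at 10.6 CPM in the lawn against 2861 and 2593 CPM in the saturated libraries (-8.00 ± 0.61, edgeR adjusted p = 0.000431). HXT3, another low-affinity transporter, stood at 53.8 CPM against 10090 and 14770 CPM (-7.85 ± 0.73). In log phase HXT1 stood at 363.9 and 453.5 CPM and HXT3 at 534.3 and 466.1 CPM. At both genes the saturated pair was thus above growing cells, and the lawn was below them. HXT5, a transporter made when growth is slow, stood at 3397 CPM against 138 and 431 CPM (3.60 ± 0.68, edgeR adjusted p = 0.0116). The high-affinity transporters HXT6 (265 against 7.79 and 26.4 CPM) and HXT7 (94.6 against 5.57 and 8.79 CPM) were higher too, at 4.26 ± 0.54 and 3.87 ± 0.78. Others did not pass: HXT2 stood at 5.32 CPM against 4.17 and 3.77 CPM (0.38 ± 0.63), and HXT4 at 166 CPM, between the saturated values of 132 and 263 CPM (-0.23 ± 0.44). HXT6 and HXT7 are near-identical genes whose reads the counting may have divided between them, so each value alone is uncertain. By TPM, the lawn held more HXT5 than HXT3, at 2569 TPM against 42.5 TPM for HXT3, whereas the saturated libraries held 55.3 and 186 TPM of HXT5 and 4211 and 6638 TPM of HXT3.

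Of the sensors and regulators of these genes, the high-affinity glucose sensor SNF3 was higher in the lawn (200 against 33.7 and 60.3 CPM, 2.17 ± 0.40), while the low-affinity sensor RGT2 (79.8 against 189 and 194 CPM, -1.26 ± 0.33) and STD1, which acts in the same signal (34.3 against 248 and 100 CPM, -2.38 ± 0.55), were lower. In all, 4 of the 15 tested members of the list were higher and 4 lower, with a median of 0.58 beside the -0.05 of all genes. That median turned to -0.13 without saturated replicate 1, -0.49 with the lawn and saturated libraries alone and -0.22 without the rapamycin libraries. Without saturated replicates 1 and 2 the differences were 3.28 and 5.12 for HXT6 and 2.94 and 4.65 for HXT5, and without saturated replicate 1 that of STD1 was -1.59. STD1 and RGT2 did not pass with plain totals, and RGT2 did not pass without either log-phase library or with the lawn and saturated libraries alone.

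Glycolysis, the route from glucose to pyruvate, was lower as a group: 11 of 18 members were lower, none was higher, and the median difference was -2.50 (-1.77 with plain totals). The members summed to 20850 CPM in the lawn against 112300 and 159100 CPM in the saturated libraries and 86600 and 100900 CPM in log phase. HXK2, the main hexokinase of growth on glucose, stood at 85.7 CPM against 1060 and 764 CPM (-3.41 ± 0.50, edgeR adjusted p = 0.00374). The enolase genes ENO1 (1104 against 18560 and 35360 CPM, -4.61 ± 0.88) and ENO2 (416 against 2309 and 4296 CPM, -2.99 ± 0.63) were both lower, as were the glyceraldehyde-3-phosphate dehydrogenase gene TDH2 (191 against 1460 and 1187 CPM, -2.79 ± 0.46) and the pyruvate kinase gene CDC19 (1892 against 10590 and 15770 CPM, -2.80 ± 0.62).

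Not every step differed by this much. TDH3, the main form of the dehydrogenase, stood at 3349 CPM against 5643 and 6597 CPM (-0.87 ± 0.53, edgeR adjusted p = 0.335). TDH1, a form of slow growth, stood at 1085 CPM against 19130 and 25270 CPM (-4.36 ± 1.26) and missed the threshold at an edgeR adjusted p of 0.0566; its log-phase values, 66.0 and 626 CPM, lay far apart. Where near-identical members such as ENO1 and ENO2 or TDH2 and TDH3 share reads, the split between them is uncertain. The count was 17 lower without saturated replicate 1, 14 without saturated replicate 2 and 5 with the lawn and saturated libraries alone, and CDC19 was among the calls lost in that last fit.

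The steps from pyruvate to ethanol changed in the same sense as glycolysis. PDC1, the main pyruvate decarboxylase, stood at 3318 CPM in the lawn against 50850 and 109300 CPM (-4.59 ± 0.89, edgeR adjusted p = 0.0122), and PDC1 with PDC5 took 0.442% of all gene reads in the lawn against 7.70% and 10.9% in the saturated libraries. ADH1, which reduces acetaldehyde to ethanol, stood at 1394 CPM against 12640 and 20330 CPM (-3.56 ± 0.68). In contrast PDC6, another decarboxylase gene, stood at 1570 CPM against 240 and 327 CPM (2.48 ± 0.47). Both acetyl-CoA synthetase genes were higher in the lawn: ACS1, repressed by glucose, stood at 1103 CPM against 55.4 and 195 CPM (3.19 ± 0.67), and ACS2 at 333 CPM against 99.9 and 72.9 CPM (1.93 ± 0.36). ADH2, which oxidises ethanol, stood at 57.3 CPM against 3.62 and 25.1 CPM and did not pass the test (2.39 ± 0.96, edgeR adjusted p = 0.149). Of 15 members of this list 4 were higher and 3 lower (7 and 5 without saturated replicate 2). Among all genes, 5.05% were called higher and 7.14% lower in the main fit. Without saturated replicate 2 the difference of PDC1 was -3.90. Without replicates 1 and 2 that of ACS1 was 2.46 and 4.35 and that of ADH2 1.15 and 4.01.

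Genes for taking up and using 2-carbon and 3-carbon compounds were higher in the lawn nearly throughout. Of the 4 membrane transporters of lactate, acetate and ammonium, JEN1, the lactate and pyruvate permease, stood at 1350 CPM against 23.4 and 52.8 CPM (5.25 ± 0.48, edgeR adjusted p = 0.000609). ATO2 stood at 216 CPM against 12 and 23.9 CPM (3.75 ± 0.41), and ADY2, an acetate transporter, at 110 CPM against 0.278 and 16.3 CPM (4.61 ± 1.17). ATO3 stood at 32.5 CPM, between the saturated values of 19.5 and 113 CPM. The saturated libraries differed widely at ADY2, whose difference was 2.71 without saturated replicate 1 and 8.54 without saturated replicate 2 and which DESeq2 did not call; JEN1 gave 4.63 and 5.89, and ATO2 3.13 without saturated replicate 1. ATO3 turned sign between the saturated libraries: it was called lower, at -1.84, without saturated replicate 1 and stood at 0.77 without saturated replicate 2.

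Of the 16 genes for gluconeogenesis, the glyoxylate cycle and the carnitine shuttle, 14 were higher and none lower, with a median of 4.13 (4.87 with plain totals). They summed to 19230 CPM in the lawn, 3570 and 3391 CPM in the saturated libraries and 905 and 1274 CPM in log phase. The genes of gluconeogenic steps that glycolysis does not share were low in saturated culture: FBP1, fructose-1,6-bisphosphatase, had 300 reads in the lawn (177 CPM) against 7 and 3 reads (1.95 and 3.77 CPM), and PCK1, phosphoenolpyruvate carboxykinase, stood at 678 CPM against 14.2 and 23.9 CPM. Their differences were 6.22 ± 0.76 and 5.27 ± 0.44.

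In the glyoxylate cycle, which turns acetyl-CoA into succinate without loss of carbon, ICL1 (isocitrate lyase) stood at 2006 CPM against 43.1 and 59.0 CPM (5.32 ± 0.39) and MLS1 (malate synthase) at 1619 CPM against 83.2 and 170 CPM (3.71 ± 0.58). SFC1, which exchanges succinate for fumarate across the mitochondrial membrane, stood at 398 CPM against 5.57 and 8.79 CPM (5.95 ± 0.42), and IDP2, the cytosolic isocitrate dehydrogenase, at 594 CPM against 28.4 and 41.5 CPM (4.14 ± 0.34). The carnitine shuttle, which carries acetyl groups into mitochondria, had all of its genes higher: YAT1 (2331 against 20.6 and 72.9 CPM), YAT2 (3555 against 267 and 138 CPM), CAT2 (902 against 44.8 and 67.8 CPM) and the carrier CRC1 (463 against 10.8 and 12.6 CPM). ICL2, which acts on 2-methylisocitrate next to PDH1, was higher as well (105 against 10.0 and 23.9 CPM, 2.84 ± 0.60).

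The activators of these genes rose with them. CAT8 stood at 627 CPM against 12.5 and 40.2 CPM (4.77 ± 0.56), SIP4 at 639 CPM against 120 and 45.2 CPM (2.89 ± 0.46) and ADR1 at 961 CPM against 165 and 234 CPM (2.28 ± 0.43). The 2 members that did not pass were CIT2 and MDH2, with CIT2, the peroxisomal citrate synthase, already at 2662 and 2317 CPM in the saturated libraries and at 3974 CPM in the lawn. With saturated replicate 1 left out, the differences were 5.50 for FBP1, 4.96 for YAT1, 3.92 for CAT8, 3.78 for SIP4 and 2.09 for ICL2, and without saturated replicate 2 they were 6.86 for YAT1, 5.68 for CAT8 and 4.32 for MLS1. DESeq2 did not call FBP1, and the other 13 kept their call in each of the 11 settings.

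Fatty acid oxidation in peroxisomes was higher for 6 of 17 members and lower for none, with a median of 1.29. POT1, the thiolase of the pathway, had 133 reads in the lawn against 2 and 4 reads (78.6 against 0.557 and 5.03 CPM, 5.68 ± 0.85). FOX2 (242 against 25.3 and 36.4 CPM), the acyl-CoA synthetase FAA2 (177 against 21.7 and 27.6 CPM), the isomerase ECI1 (39.0 against 8.07 and 8.79 CPM), the transporter subunit PXA2 (113 against 28.7 and 23.9 CPM) and the peroxisomal catalase CTA1 (40.8 against 11.1 and 11.3 CPM) were the others. The count was 11 higher and 1 lower without saturated replicate 2 and 13 higher with plain totals. POT1 gave 3.92 and 7.11 without saturated replicates 1 and 2, and DESeq2 called neither POT1 nor CTA1. FAA2 overlaps BUD25, and the sources used here do not say whether counting used strand.

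Genes for other sugars changed less. Of 14 tested members of the galactose, maltose and sucrose list 4 were higher and none lower, with a median of 0.19: the maltose genes MAL31 (122 against 28.4 and 26.4 CPM, 2.14 ± 0.32), MAL11 (83.9 against 20.6 and 27.6 CPM) and MAL33 (135 against 51.8 and 27.6 CPM), and the invertase gene SUC2 (49.1 against 14.2 and 12.6 CPM). The MAL genes belong to families of near-identical copies, so their single values are uncertain. Without saturated replicate 2, 5 members were higher and 1 was lower.

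Glycerol genes were called in both directions. Of the genes for making glycerol, 3 were lower: GPP2 stood at 72.1 CPM against 2625 and 2053 CPM (-5.02 ± 0.77, edgeR adjusted p = 0.00471), GPP1 at 304 CPM against 1323 and 1166 CPM (-2.03 ± 0.42) and GPD2 at 98.7 CPM against 492 and 430 CPM (-2.22 ± 0.37). GPD1, the other glycerol-3-phosphate dehydrogenase, stood at 465 CPM, between the saturated values of 345 and 604 CPM (-0.02 ± 0.42, edgeR adjusted p = 0.982). The enzymes and the carrier that take up and use glycerol were higher: STL1, the glycerol symporter, stood at 97.5 CPM against 1.67 and 16.3 CPM (4.06 ± 0.86), GUT1 at 453 CPM against 86.0 and 144 CPM (2.00 ± 0.36) and GUT2 at 546 CPM against 57.3 and 185 CPM (2.23 ± 0.62). ENA1, a sodium pump, stood at 69.8 CPM against 5.01 and 6.28 CPM (3.70 ± 0.44); it has near-identical neighbours. HOG1, the kinase of the osmotic stress pathway, was lower (62.1 against 186 and 132 CPM, -1.37 ± 0.37). In total 4 of 13 were higher and 4 lower, beside 5.05% higher and 7.14% lower of all genes. The median of -0.03 moved to 0.70 with plain totals. With saturated replicates 1 and 2 left out in turn, the differences were 2.53 and 5.88 for STL1 and 1.52 and 3.29 for GUT2. GPP1, HOG1 and GUT2 did not pass with the lawn and saturated libraries alone, which left 3 higher and 2 lower. HOG1 also did not pass with plain totals or without either log-phase library, and GUT2 did not pass with protein-coding genes alone.

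**Figure D2:**
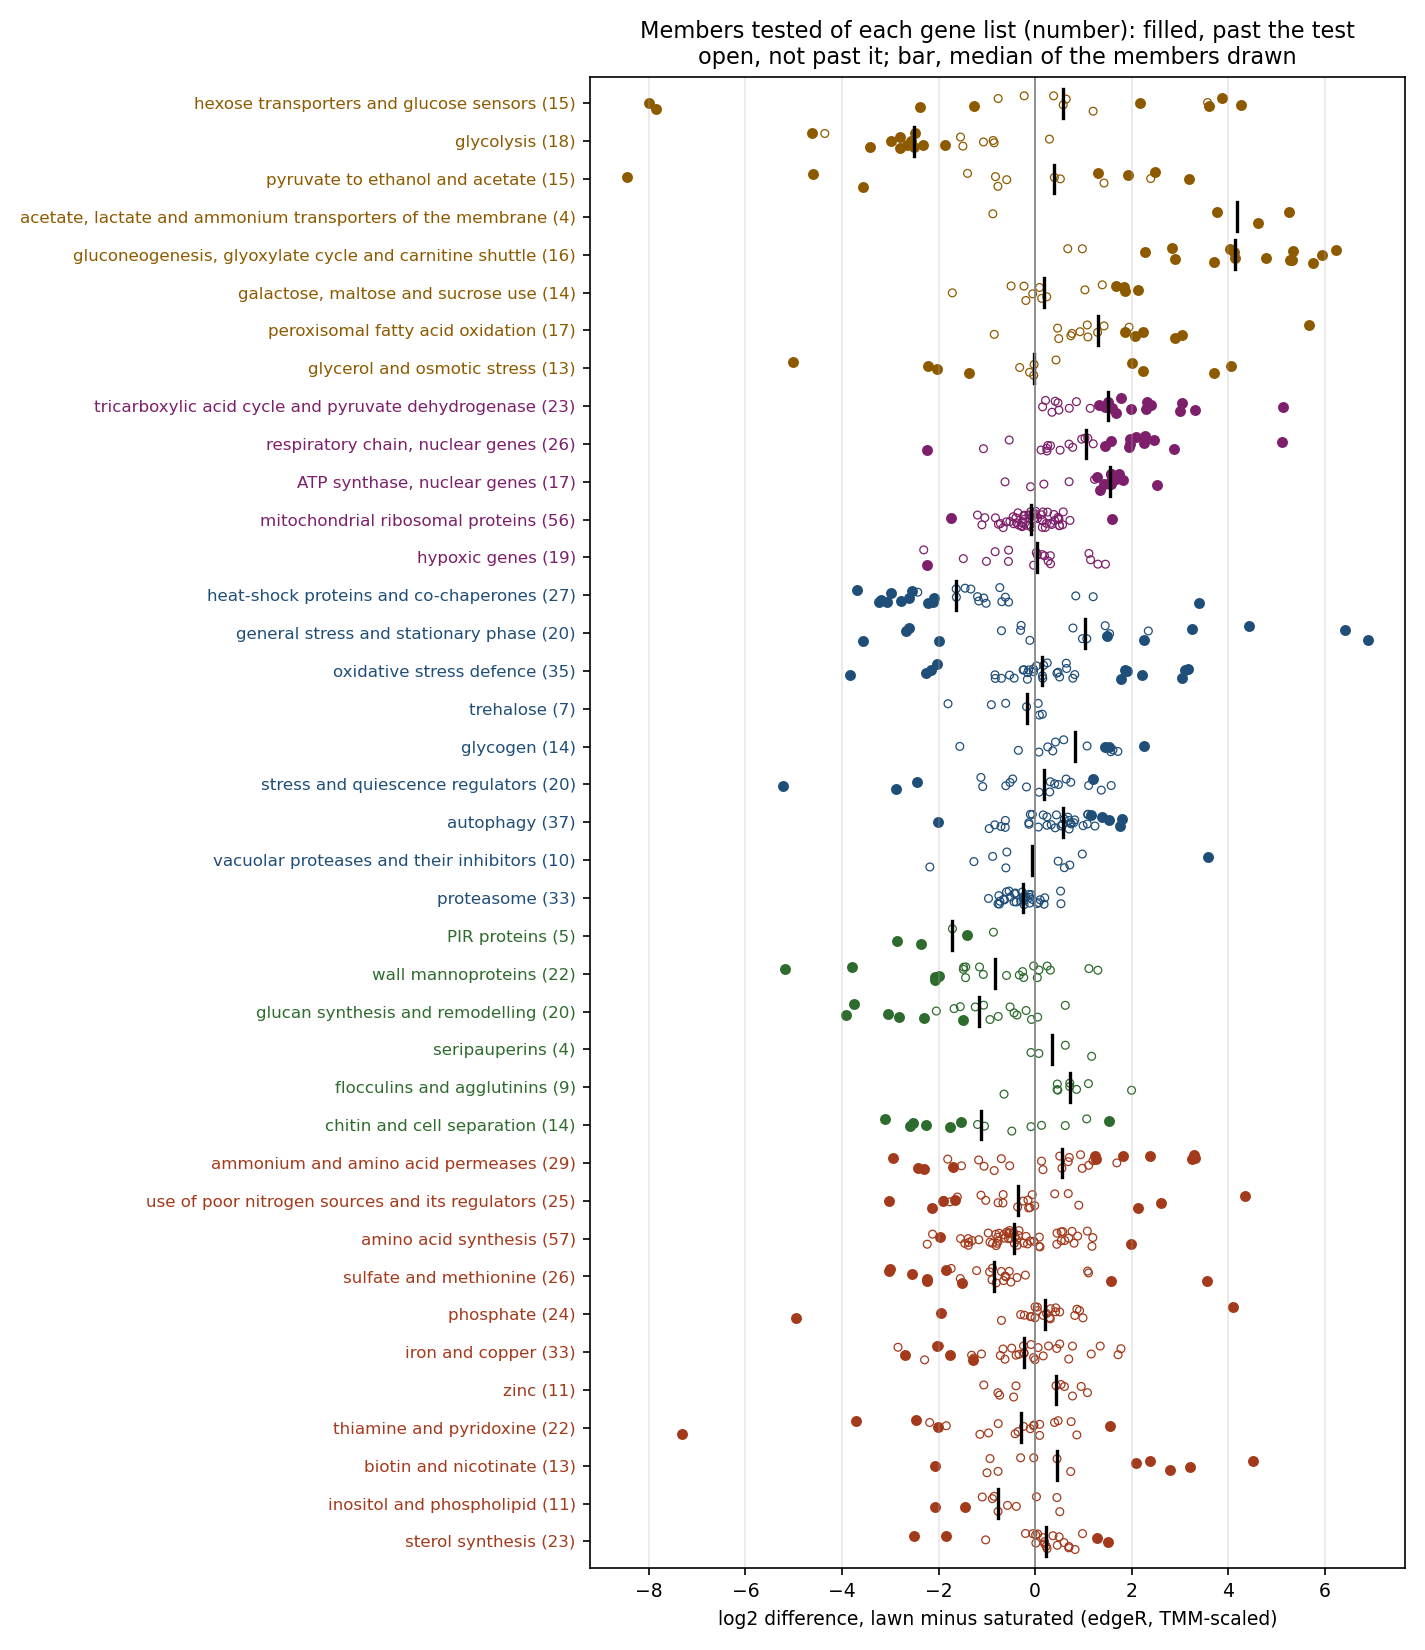
Log2 difference of each tested member of the lists on carbon, respiration, stress, wall and nutrients, with filled points for members past the test, open points for the rest and a bar at the median of the members drawn. MET17, deleted in the strain, is left out. Glyoxylate, tricarboxylic acid cycle and ATP synthase genes lie to the right, and most glycolysis, heat-shock, PIR and glucan genes to the left.

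Genes of respiration were higher in the lawn in each of the 3 lists of its enzymes. Of the tricarboxylic acid cycle with pyruvate dehydrogenase, 14 of 23 members were higher and none lower, with a median of 1.51. The list summed to 23210 CPM in the lawn against 6945 and 7284 CPM in the saturated libraries. CIT3, a mitochondrial citrate synthase that also acts on propionyl-CoA, stood at 432 CPM against 9.18 and 18.8 CPM (5.14 ± 0.43, edgeR adjusted p = 0.000453). ACO1 (aconitase) stood at 2424 CPM against 267 and 320 CPM (3.05 ± 0.41), which was close to its log-phase values of 2063 and 2522 CPM.

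All 4 main subunits of succinate dehydrogenase, which links the cycle to the respiratory chain, were higher: SDH1 (1708 against 125 and 310 CPM, 2.99 ± 0.50), SDH2 (1295 against 126 and 134 CPM, 3.32 ± 0.34), SDH3 (356 against 90.4 and 89.2 CPM, 1.99 ± 0.30) and SDH4 (548 against 87.9 and 141 CPM, 2.29 ± 0.37). FUM1 (fumarase, 613 against 98.8 and 137 CPM), MDH1 (malate dehydrogenase, 803 against 213 and 259 CPM), CIT1 (the main citrate synthase, 1954 against 680 and 608 CPM), KGD1 (of the 2-oxoglutarate dehydrogenase complex, 2402 against 880 and 810 CPM) and the pyruvate carboxylase gene PYC1 (4875 against 686 and 1284 CPM) were higher too. Of the pyruvate dehydrogenase genes, LPD1, whose product also serves the 2-oxoglutarate dehydrogenase complex, was higher (748 against 296 and 251 CPM, 1.45 ± 0.35), and PDA1 did not pass, at 681 CPM against 438 and 531 CPM (0.49 ± 0.39, edgeR adjusted p = 0.463). CIT3 gave 4.47 without saturated replicate 1 and SDH1 3.81 without saturated replicate 2. CIT1, KGD1 and LPD1 did not pass with the lawn and saturated libraries alone, nor KGD1 without either log-phase library, nor LPD1 without log-phase replicate 1.

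Of the nuclear genes of the respiratory chain, 11 of 26 were higher and 1 lower, with a median of 1.06. NADH enters the yeast chain through single-subunit dehydrogenases, and all 3 of their genes were higher: NDE2 (469 against 9.74 and 21.4 CPM, 5.11 ± 0.45), NDE1 (747 against 156 and 113 CPM, 2.46 ± 0.34) and NDI1 (513 against 104 and 141 CPM, 2.08 ± 0.34). CYC1, the main form of cytochrome c, stood at 158 CPM against 15.9 and 31.4 CPM (2.88 ± 0.41). Cytochrome c oxidase subunits were higher at COX4 (347 against 89.6 and 87.9 CPM), COX5A (526 against 82.7 and 142 CPM), COX6 (329 against 54.3 and 85.4 CPM) and COX8 (144 against 30.3 and 47.7 CPM), with differences of 1.95 to 2.27. Complex III was higher at QCR2 (766 against 203 and 188 CPM) and COR1 (1.56 ± 0.37).

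HAP4, the regulated subunit of the activator of these genes, stood at 1156 CPM against 353 and 492 CPM (1.46 ± 0.36), with 54.9 and 65.2 CPM in log phase, so both non-growing states were above growing cells. Without saturated replicate 1 the difference was 4.41 for NDE2 and 2.28 for CYC1. COR1 and HAP4 did not pass with the lawn and saturated libraries alone. With saturated replicate 1 left out, 12 members were higher and 2 lower, and with plain totals 19 were higher and none lower. The 8 genes of the mitochondrial genome in the lists were not analysed here.

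The nuclear genes of ATP synthase moved together by a similar amount: 12 of 17 were higher, none lower, and the median was 1.55. ATP5 stood at 410 CPM against 63.5 and 81.7 CPM (2.52 ± 0.32, edgeR adjusted p = 0.00244), ATP2, the beta subunit, at 2771 CPM against 660 and 911 CPM (1.82 ± 0.40), ATP3 at 789 CPM against 265 and 232 CPM (1.66 ± 0.33) and ATP16 at 351 CPM against 115 and 95.5 CPM (1.73 ± 0.31). STF1, which encodes an inhibitor of the enzyme, also passed (260 against 106 and 96.7 CPM, 1.35 ± 0.38). With the lawn and saturated libraries alone only 3 of these calls were kept, and those of ATP2, ATP3 and STF1 were lost. Without saturated replicate 1, 12 were higher and 1 was lower.

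Genes for the mitochondrial ribosome did not follow the enzymes. Of 56 members 1 was higher, MRPS16 (35.5 against 12.5 and 10.1 CPM), and 1 was lower, MRPL31 (11.2 against 41.5 and 31.4 CPM), shares below the 5.05% and 7.14% of all genes. The median was -0.09 (0.65 with plain totals). Neither call was kept without a log-phase library, with DESeq2 or with the lawn and saturated libraries alone. Leaving out saturated replicate 1 gave 2 higher and 5 lower, and leaving out replicate 2 gave 3 higher and 3 lower. Among 19 hypoxic genes, which are induced when oxygen is scarce, COX5B was the single call (49.1 against 277 and 181 CPM, -2.23 ± 0.53). That share of lower calls is below the 7.14% of all genes, and the call was lost with plain totals. The median of that list was 0.04, and it had 1 higher and 2 lower when saturated replicate 1 was left out, and 3 higher and 4 lower when replicate 2 was.

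Several enzymes and subunits are encoded by more than one gene, and ratios of deposited TPM show which form prevailed. These 17 pairs were chosen after their values were seen and are a description. COX5A, the form of cytochrome c oxidase subunit 5 used in air, was 10.6 times COX5B, the hypoxic form, in the lawn, against 0.295 and 0.775 times in the saturated libraries. CYC1 was 3.79 times CYC7, the minor cytochrome c gene, in the lawn against 0.438 and 1.08 times, with 13.2 and 7.48 times in log phase. The Hsp70 gene SSA3 was 2.10 times SSA4 in the lawn against 0.0141 and 0.0172 times. Glutamate dehydrogenase GDH3, a form of growth without glucose, was 3.00 times GDH1 against 0.0978 and 0.147 times, and HXT5 was 60.5 times HXT3 against 0.0131 and 0.0279 times. TDH1 to TDH3 went the other way, at 0.324 in the lawn against 3.39 and 3.83. In all 17 pairs the lawn ratio lay outside the saturated pair, though ACS1 to ACS2, at 3.17 against 0.531 and 2.56, was close to saturated replicate 2.

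**Figure D3:**
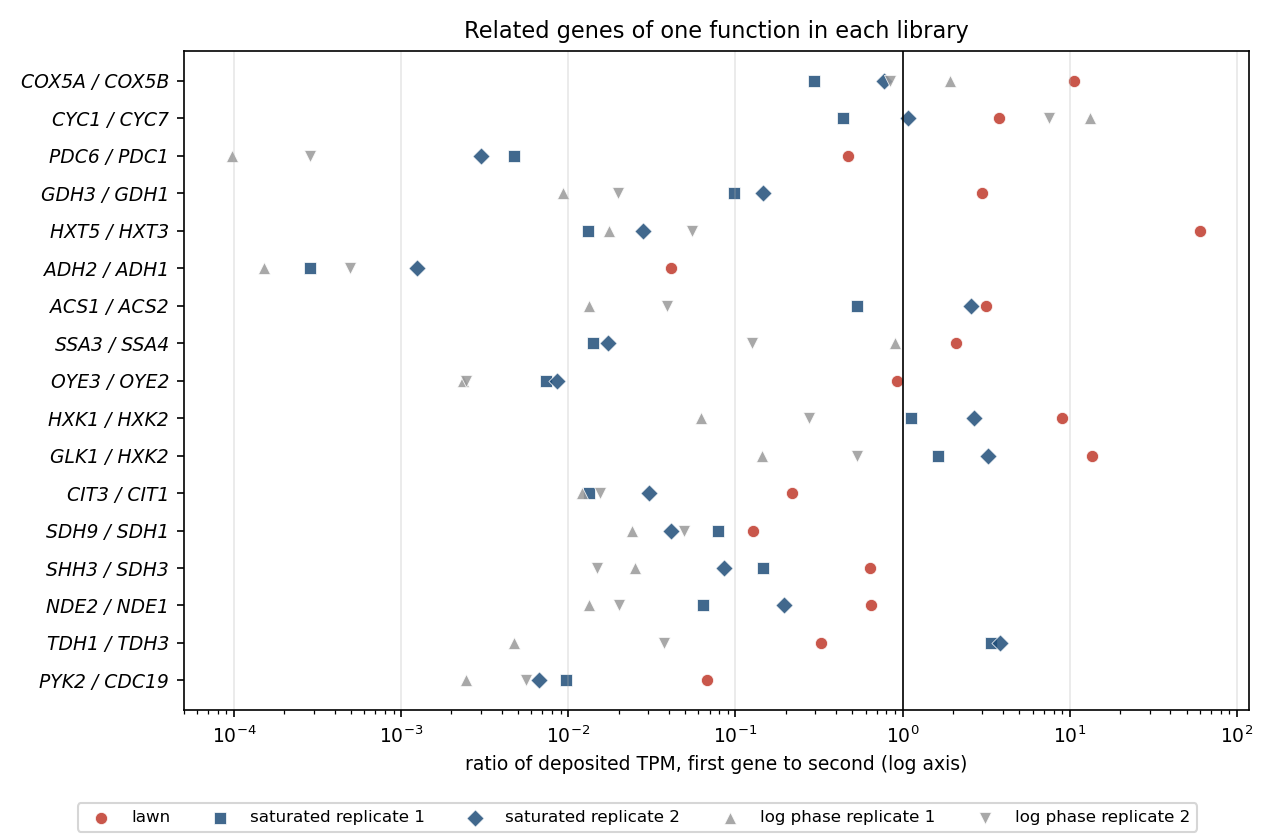
Ratio of deposited TPM (log axis) between related genes in the lawn, both saturated libraries and both log-phase libraries, with 1 point per library and a line at equal levels. COX5A over COX5B, CYC1 over CYC7 and HXT5 over HXT3 are above 1 in the lawn, whereas TDH1 over TDH3 is above 1 only in the saturated pair. CYC1 over CYC7 is also above 1 in saturated replicate 2 (1.08) and higher still in log phase (13.2 and 7.48). COX5A over COX5B is also above 1 in log-phase replicate 1 (1.93).

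Stress genes did not move as a block. Of 27 heat-shock proteins and co-chaperones tested, 1 was higher, 11 were lower and 15 did not pass, with a median of -1.63. They summed to 20230 CPM in the lawn against 88170 and 90520 CPM in the saturated libraries, and to 20100 and 18590 CPM in log phase. HSP30, a small membrane protein that restrains the plasma membrane proton pump, stood at 2344 CPM against 26930 and 16970 CPM (-3.23 ± 0.62, edgeR adjusted p = 0.0119). HSP31 (164 against 1743 and 1252 CPM, -3.19 ± 0.51), the Hsp90 gene HSP82 (966 against 3835 and 5141 CPM, -2.21 ± 0.48), its co-chaperone CPR6 (185 against 1532 and 1406 CPM, -2.99 ± 0.44), the Hsp110 genes SSE1 (756 against 4976 and 4211 CPM) and SSE2 (820 against 6629 and 4673 CPM) and BTN2, which gathers misfolded proteins (89.3 against 911 and 593 CPM), were all lower.

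The Hsp70 genes split. SSA4, the heat-induced form, stood at 340 CPM against 3752 and 5055 CPM (-3.69 ± 1.02) and SSA2 at 190 CPM against 772 and 863 CPM (-2.10 ± 0.46), while SSA3 stood at 722 CPM against 53.4 and 87.9 CPM (3.39 ± 0.39, edgeR adjusted p = 0.0014). HSP26 and HSP104, which hold and dissolve aggregates, stood at 3672 CPM against 13640 and 25950 CPM and at 2336 CPM against 7802 and 6672 CPM, and missed the threshold at edgeR adjusted p-values of 0.0694 and 0.0732. The count of lower members was 20 without saturated replicate 1, 17 without saturated replicate 2 and 18 with DESeq2, and it was 7 with the lawn and saturated libraries alone, where HSP30, SSE1, SSA2 and HSP82 lost their call. SSA4 lost its call with plain totals. SSA genes are similar in sequence, so reads may be divided between them.

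Among 20 genes of general stress and stationary phase, 6 were higher and 4 lower, with a median of 1.02. Beside SIP18 and SPG4, SPG1 (171 against 3.06 and 20.1 CPM, 4.43 ± 0.71), FMP45 (517 against 34 and 81.7 CPM, 3.25 ± 0.74) and RTN2 (431 against 102 and 76.6 CPM, 2.25 ± 0.44) were higher. HOR7 (351 against 3871 and 4389 CPM, -3.56 ± 0.79), the methylglyoxal reductase gene GRE2 (144 against 727 and 1121 CPM) and DDR48 (105 against 673 and 604 CPM) were lower. GRE1, a relative of SIP18, stood at 1678 CPM against 169 and 500 CPM (2.34 ± 0.66), and HSP12, a membrane-protecting protein, at 1590 CPM against 346 and 751 CPM (1.54 ± 0.86); neither passed. Without saturated replicates 1 and 2 the differences were 3.05 and 5.83 for SPG1, 2.62 and 3.96 for FMP45 and 1.70 and 3.35 for GRE1, and without saturated replicate 2 HSP12 gave 2.23 and the list had 13 higher and 4 lower. With plain totals 10 were higher and 3 lower, and DESeq2 did not call FMP45.

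Oxidative stress genes were called in both directions, 7 higher and 4 lower of 35, beside 5.05% and 7.14% of all genes. Their median was 0.15 (-0.01 without saturated replicate 2). Among the higher were the mitochondrial superoxide dismutase SOD2 (670 against 175 and 185 CPM, 1.90 ± 0.34), the cytosolic catalase CTT1 (1241 against 338 and 191 CPM, 2.22 ± 0.62) and the nitric oxide oxidoreductase YHB1 (401 against 54.8 and 41.5 CPM, 3.03 ± 0.43). ECM4 (365 against 47.0 and 31.4 CPM, 3.17 ± 0.38) and GTT1 (192 against 50.1 and 62.8 CPM, 1.78 ± 0.41), which act on glutathione conjugates, were higher too. Among the lower were the thioredoxin reductase TRR1 (73.9 against 308 and 294 CPM, -2.03 ± 0.38) and the peroxiredoxin AHP1 (686 against 2740 and 3822 CPM, -2.26 ± 0.50). The NADPH oxidoreductases of the old yellow enzyme family crossed over, with OYE2 at 162 CPM against 2120 and 2508 CPM (-3.84 ± 0.49) and OYE3 at 150 CPM against 15.6 and 21.4 CPM (3.09 ± 0.36). With plain totals 14 were higher and 4 lower, and with the lawn and saturated libraries alone AHP1 lost its call, leaving 7 and 2.

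None of 7 trehalose genes passed the test with edgeR, and 1 had an unadjusted p under 0.05; DESeq2 called 1 lower, as did edgeR without either saturated library. TSL1 stood at 985 CPM against 2936 and 3946 CPM (-1.80 ± 0.62, edgeR adjusted p = 0.0993) and TPS2 at 571 CPM against 1164 and 976 CPM (-0.91 ± 0.44). The median of that list was -0.18, and 0.56 with plain totals. Of 14 glycogen genes 3 were higher and none lower, beside 5.05% and 7.14% of all genes, with a median of 0.83: the primers GLG1 (278 against 118 and 82.9 CPM, 1.45 ± 0.37) and GLG2 (124 against 30.1 and 18.8 CPM, 2.25 ± 0.37) and the branching enzyme GLC3 (518 against 162 and 198 CPM, 1.53 ± 0.43). That count was 6 higher and 1 lower without saturated replicate 1 and likewise without saturated replicate 2, and 5 higher without either log-phase library, and GLG1 and GLC3 did not pass with the lawn and saturated libraries alone.

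Of the regulators of stress and glucose repression, 3 of 20 were lower and 1 higher, beside 7.14% lower and 5.05% higher of all genes. The share of higher calls was thus near that of all genes. The 3 lower ones encode repressors of transcription that act in glucose signalling: MIG2 (5.91 against 298 and 141 CPM, -5.23 ± 0.67, edgeR adjusted p = 0.00231), MIG3 (8.87 against 49.5 and 46.5 CPM, -2.44 ± 0.46) and NRG1 (99.3 against 938 and 518 CPM, -2.88 ± 0.49). TPK2, a catalytic subunit of protein kinase A, was higher (185 against 84.9 and 76.6 CPM, 1.19 ± 0.32) but not without either log-phase library, with DESeq2 or with the lawn and saturated libraries alone. MIG2 gave -4.61 without saturated replicate 1. Leaving out saturated replicate 1 gave 3 higher and 5 lower, leaving out replicate 2 gave 5 and 5, and plain totals gave 9 and 3.

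Of 37 autophagy genes 5 were higher and 1 lower, beside 5.05% and 7.14% of all genes, with a median of 0.57. The receptors of selective autophagy ATG34 (144 against 40.4 and 42.7 CPM), ATG36 (82.2 against 27.3 and 30.1 CPM) and ATG39 (333 against 135 and 118 CPM) were higher, as was ATG17 (41.4 against 10.8 and 15.1 CPM), while ATG41 was lower (530 against 2726 and 1553 CPM, -2.02 ± 0.49). ATG8, the protein that coats the autophagosome, stood at 116 CPM against 205 and 245 CPM and did not pass (edgeR adjusted p = 0.101). Omitting saturated replicate 1 gave 7 and 3, leaving out replicate 2 gave 9 and 1, and the counts were 20 and 0 with plain totals and 1 and 0 with the lawn and saturated libraries alone, where ATG17, ATG36, ATG39 and ATG41 lost their call.

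Of 10 vacuolar proteases and inhibitors only PAI3, an inhibitor of the vacuolar protease Pep4, was called (261 against 13.6 and 36.4 CPM, 3.58 ± 0.57). The protease PRB1 stood at 1089 CPM against 3148 and 6730 CPM (-2.18 ± 0.67, edgeR adjusted p = 0.0684). With saturated replicates 1 and 2 left out in turn, PAI3 gave 2.79 and 4.29, PRB1 gave -1.50 without saturated replicate 2, and the counts were 1 higher and 3 lower, and 2 and 2. They were 1 and 1 without either log-phase library. None of 33 proteasome genes passed with edgeR or DESeq2, and 1 had an unadjusted edgeR p under 0.05; the differences ran from -0.97 to 0.53, and edgeR called 2 lower without saturated replicate 1 and 2 higher with plain totals.

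Calls on cell wall genes were mostly lower in the lawn. The yeast wall is a glucan network with mannoproteins attached to it and chitin at the bud necks and scars. Of 5 PIR proteins, which are bound to glucan directly, 3 were lower: CIS3 (12.4 against 54.3 and 132 CPM, -2.86 ± 0.63), PIR3 (603 against 2070 and 4132 CPM, -2.36 ± 0.57) and PIR1 (91.0 against 248 and 234 CPM, -1.41 ± 0.35). PIR3 differed by state, at 7.73 and 12.1 CPM in log phase, while CIS3 was highest in log phase at 606 and 636 CPM. Without saturated replicates 1 and 2 CIS3 gave -3.45 and -2.09, and PIR3 gave -1.75 without saturated replicate 2. PIR1 and PIR3 did not pass with plain totals or with the lawn and saturated libraries alone, and PIR1 not without either log-phase library.

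Among 22 wall mannoproteins tested 5 were lower and none higher, with a median of -0.83 (-0.10 with plain totals). SPI1, a wall protein of stationary phase and weak acid stress, stood at 154 CPM against 5472 and 5680 CPM (-5.17 ± 0.72, edgeR adjusted p = 0.00314), and YGP1, a secreted glycoprotein of nutrient limitation, at 532 CPM against 7456 and 7311 CPM (-3.79 ± 0.52). Both were higher in saturated culture than in log phase, where they stood at 10.1 and 26.3 CPM and at 263 and 280 CPM. CWP2 (60.9 against 242 and 274 CPM, -2.08 ± 0.44) and ECM33 (89.3 against 239 and 514 CPM, -2.07 ± 0.55) had the opposite order across states, with 1348 and 1672 CPM and 1597 and 1822 CPM in log phase. PST1, a relative of ECM33, was lower as well (183 against 571 and 877 CPM). ECM33 gave -1.39 without saturated replicate 2, and ECM33 and PST1 did not pass with plain totals or with the lawn and saturated libraries alone. The counts were 9 lower without saturated replicate 1, 2 higher and 8 lower without saturated replicate 2, and 1 and 3 with plain totals.

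Glucan synthesis and remodelling had 6 of 20 members lower and none higher. GAS1, the main glucan elongase, stood at 108 CPM against 1904 and 1330 CPM (-3.91 ± 0.52, edgeR adjusted p = 0.00271), its relative GAS3 at 7.09 CPM against 48.4 and 72.9 CPM (-3.05 ± 0.48), SCW10, a glucanase-like protein, at 13.6 CPM against 101 and 274 CPM (-3.75 ± 0.69) and YPS1, a surface protease that acts on wall proteins, at 126 CPM against 820 and 974 CPM (-2.83 ± 0.48). EXG2 (30.7 against 188 and 109 CPM) and KRE6 (206 against 479 and 685 CPM) were the others. SCW10 gave -4.37 and -2.86 without saturated replicates 1 and 2, 10 members were lower without saturated replicate 1, and KRE6 lost its call with plain totals, without either log-phase library and with the lawn and saturated libraries alone.

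Chitin and cell separation genes were lower at 6 of 14 members and higher at 1. CHS1, a chitin synthase that repairs the wall after division, stood at 142 CPM against 953 and 1501 CPM (-3.10 ± 0.49). The daughter-cell genes DSE1 (34.3 against 282 and 128 CPM, -2.60 ± 0.54) and DSE4 (36.6 against 298 and 118 CPM, -2.52 ± 0.59) and the separation genes EGT2 (42.0 against 277 and 119 CPM, -2.26 ± 0.55), SCW11 (33.1 against 141 and 79.1 CPM) and AMN1 (29.6 against 104 and 62.8 CPM) were lower. CHS2, which forms the septum, was the higher call at a low level (17.1 against 5.84 and 6.28 CPM). With saturated replicate 1 left out, the differences were -1.94 for DSE1, -1.73 for DSE4 and -1.55 for EGT2, and 5 members were lower and none higher, CHS2 and AMN1 having lost their call. They also lost it without either log-phase library and with the lawn and saturated libraries alone, and CHS2 lost it with DESeq2 too. SCW11 lost its call with the lawn and saturated libraries alone, and DSE4, EGT2, SCW11 and AMN1 lost theirs with plain totals.

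Surface families linked to anaerobic growth and adhesion gave no call. Only 4 of 24 seripauperin genes had enough reads to test, and none passed with edgeR or DESeq2 or had an unadjusted p under 0.05; PAU17 stood at 985 CPM, between saturated values of 527 and 1573 CPM, and PAU5, PAU2 and PAU23 were below 10 CPM in each of the 3 libraries. Members of this family are near copies of each other. Of 9 flocculins and agglutinins none passed with edgeR or DESeq2, 2 had an unadjusted edgeR p under 0.05, and the median was 0.72; AGA2 stood at 17.1 CPM against 5.29 and 1.26 CPM (2.00 ± 0.67, edgeR adjusted p = 0.0914) and the flocculin FLO10 at 62.7 CPM against 32.6 and 37.7 CPM (0.86 ± 0.35). Leaving out saturated replicate 2 gave 4 higher, as did plain totals, and leaving out saturated replicate 1 or either log-phase library gave 1. AGA2 was at 3.70 without saturated replicate 1.

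Nutrient genes were called in both directions, and the direction differed by nutrient. Of 29 ammonium and amino acid permeases 7 were higher and 4 lower, beside 5.05% higher and 7.14% lower of all genes. Their median was 0.55. DIP5, a permease of acidic amino acids, stood at 739 CPM against 68.5 and 81.7 CPM (3.31 ± 0.36, edgeR adjusted p = 0.00121), MMP1, which takes up S-methylmethionine, at 294 CPM against 34.8 and 25.1 CPM (3.25 ± 0.33), AGP3 at 178 CPM against 15.3 and 23.9 CPM (3.28 ± 0.37), AGP2, which also acts in carnitine uptake, at 372 CPM against 57.6 and 87.9 CPM (2.39 ± 0.50) and the tryptophan and tyrosine permease TAT2 at 74.5 CPM against 22.5 and 18.8 CPM (1.81 ± 0.33). The lower ones were the GABA permease UGA4 (31.3 against 155 and 185 CPM, -2.43 ± 0.40), the ammonium permease MEP3 (135 against 491 and 840 CPM, -2.29 ± 0.46), the arginine permease CAN1 (239 against 797 and 763 CPM, -1.71 ± 0.38) and the peptide transporter PTR2 (10.6 against 40.6 and 131 CPM, -2.94 ± 0.74). PTR2 gave -3.66 and -1.90 without saturated replicates 1 and 2, CAN1 and PTR2 lost their call with plain totals (15 higher and 2 lower), and without saturated replicate 2 there were 11 higher and 8 lower. CAN1 lost its call with the lawn and saturated libraries alone, and DESeq2 called 6 higher and 7 lower.

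The use of poor nitrogen sources was called higher for 3 and lower for 4 of 25 members, beside 5.05% and 7.14% of all genes. The median of -0.36 turned to 0.37 with plain totals. GDH3 stood at 1965 CPM against 55.9 and 144 CPM (4.34 ± 0.54, edgeR adjusted p = 0.00214) and GLT1, glutamate synthase, at 3515 CPM against 749 and 406 CPM (2.60 ± 0.47). GLT1 makes glutamate from glutamine, and GDH3 makes it from ammonium. DAL2, an enzyme of allantoin breakdown, stood at 60.3 CPM against 10.0 and 21.4 CPM. PUT1, which starts proline breakdown, stood at 140 CPM against 1077 and 1221 CPM (-3.04 ± 0.42), and the arginase gene CAR1 (55.6 against 213 and 207 CPM), DAL3 (8.87 against 35.9 and 44.0 CPM) and the activator GAT1 (134 against 417 and 425 CPM) were lower. With saturated replicates 1 and 2 left out in turn, GDH3 gave 3.72 and 5.17, and DAL2 1.45 without saturated replicate 1; the counts were 4 and 7, and 3 and 12. DAL3 and GAT1 lost their call with plain totals, which left 6 higher and 2 lower, and GAT1 with the lawn and saturated libraries alone.

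Amino acid synthesis had 1 call each way among 57 members, ARO10 higher (634 against 210 and 108 CPM, 1.98 ± 0.43) and SER2 lower (36.1 against 169 and 109 CPM, -1.97 ± 0.41), both shares below those of all genes. ARO10 acts in the breakdown of aromatic amino acids rather than in their synthesis. Here the saturated libraries differed from each other, with sums over the list of 63330 and 32770 CPM against 36680 CPM in the lawn, so the lawn lay between them. The counts were 10 higher and 4 lower without saturated replicate 1 and 1 higher and 18 lower without saturated replicate 2, and the median of -0.44 was 0.29 with plain totals (8 higher and 1 lower). DESeq2 called 1 higher and 5 lower, and edgeR 1 and 2 without either log-phase library.

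Of 27 sulfate and methionine genes 2 were higher and 7 lower, beside 5.05% higher and 7.14% lower of all genes. The median was -0.88 (-0.15 with plain totals). The 27 and the median include MET17, which is deleted in the strain and did not pass. The high-affinity sulfate permease SUL1 was the main exception to the direction of the list, at 1982 CPM against 224 and 109 CPM (3.55 ± 0.46, edgeR adjusted p = 0.00244), and JLP1, which releases sulfite from sulfonates, was also higher (320 against 106 and 111 CPM, 1.56 ± 0.38). The S-adenosylmethionine synthetases SAM1 (157 against 1105 and 737 CPM, -2.55 ± 0.46) and SAM2 (91.0 against 670 and 825 CPM, -3.04 ± 0.47), CYS3, which makes cysteine from cystathionine (105 against 689 and 1015 CPM, -3.02 ± 0.46), STR3, which acts toward methionine (327 against 2051 and 1043 CPM), MET14, a step of sulfate reduction (126 against 524 and 379 CPM) and MET22 (173 against 1130 and 490 CPM) were lower. The strain lacks MET17 in each library compared, so it cannot fix inorganic sulfide and takes methionine from the medium. MET22 gave -1.54 without saturated replicate 1; the counts were 4 and 10 without saturated replicate 1, 3 and 13 without saturated replicate 2, 4 and 3 with plain totals, and 2 and 3 with the lawn and saturated libraries alone, and STR3, MET14 and MET22 lost their call in both of the latter.

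Of 24 phosphate genes 1 was higher and 2 lower, near the 5.05% and 7.14% of all genes. PHO89, a sodium-phosphate symporter, stood at 28.4 CPM against 1.39 and 2.51 CPM (4.09 ± 0.70), PHM8, a phosphatase of nucleotide breakdown, at 90.5 CPM against 3304 and 2314 CPM (-4.96 ± 0.61, edgeR adjusted p = 0.00197), and the cyclin-dependent kinase PHO85 at 59.1 CPM against 161 and 300 CPM (-1.94 ± 0.45). PHO89 gave 3.44 without saturated replicate 1, PHO85 lost its call with plain totals and with the lawn and saturated libraries alone, and the counts were 2 and 2 without saturated replicate 1, 3 and 2 without saturated replicate 2 and 7 and 1 with plain totals.

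Of 33 tested iron and copper genes 4 were lower and none higher, beside 7.14% and 5.05% of all genes: the low-affinity iron transporter FET4 (34.3 against 222 and 222 CPM, -2.69 ± 0.36, edgeR adjusted p = 0.00275), the iron-sulfur scaffold ISU2 (44.9 against 235 and 126 CPM, -2.03 ± 0.45), the mRNA decay factor CTH1 (53.8 against 209 and 152 CPM, -1.76 ± 0.43) and the vacuolar reductase FRE6 (188 against 516 and 402 CPM, -1.29 ± 0.36). The median of -0.24 was 0.49 with plain totals, where 5 were higher and 1 lower and ISU2, CTH1 and FRE6 lost their call. Omitting saturated replicate 1 gave 1 and 11, omitting saturated replicate 2 gave 4 and 7, and omitting either log-phase library gave 2 and 5, with the call of FRE6 lost. CTH1 and FRE6 also lost it with the lawn and saturated libraries alone. None of 11 zinc genes passed with edgeR or DESeq2, and 4 had an unadjusted edgeR p under 0.05; the high-affinity zinc transporter ZRT1 stood at 514 CPM against 257 and 275 CPM (0.95 ± 0.36). In the zinc list edgeR called 2 higher without saturated replicate 1, 1 higher and 1 lower without replicate 2 and 6 higher with plain totals.

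Among vitamin genes, the few calls on thiamine genes were mostly lower, and those on genes of biotin uptake and synthesis were higher. Of 22 thiamine and pyridoxine genes 4 were lower, 1 was higher and 17 did not pass, beside 7.14% lower and 5.05% higher of all genes. The median was -0.30 (0.42 with plain totals). Beside THI4, the lower ones were the thiamine-repressed phosphatase gene PHO3 (9.46 against 178 and 61.6 CPM, -3.71 ± 0.71), PET18 (26.6 against 212 and 74.1 CPM, -2.47 ± 0.61) and THI6 (98.1 against 551 and 235 CPM, -2.01 ± 0.53), and THI72 was higher (59.7 against 20 and 21.4 CPM, 1.54 ± 0.40). Saturated replicate 1 was the higher of the pair at the first 3, and without it the differences were -2.74, -1.52 and -1.30. The counts were 1 higher and 8 lower without saturated replicate 2, none and 6 without log-phase replicate 1 (where THI72 lost its call), 1 and 6 without log-phase replicate 2 and 2 and 2 with plain totals, where PET18 and THI6 lost theirs. THI6 and THI72 also lost it with the lawn and saturated libraries alone, and THI72 with DESeq2.

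All 5 biotin genes tested that take up or make biotin from its precursors were higher: BIO5, which imports the precursor 7-keto 8-aminopelargonic acid (360 against 16.1 and 15.1 CPM, 4.51 ± 0.44, edgeR adjusted p = 0.000756), the biotin transporter VHT1 (876 against 85.2 and 107 CPM, 3.20 ± 0.33), BIO2 (239 against 41.2 and 23.9 CPM, 2.80 ± 0.40), BIO3 (289 against 76.0 and 28.9 CPM, 2.37 ± 0.44) and BIO4 (110 against 19.5 and 36.4 CPM, 2.10 ± 0.43). Their calls were kept in each of the 11 settings; BIO3 gave 3.28 without saturated replicate 1. Of the nicotinate genes in the same list BNA1 was lower (122 against 717 and 308 CPM, -2.08 ± 0.53), at -1.38 without saturated replicate 1, and lost its call with plain totals and with the lawn and saturated libraries alone. The lower count was 2 without saturated replicate 1 and 3 without saturated replicate 2.

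Lipid genes gave 4 lower and 2 higher calls in 34 tested, not far from the 7.14% and 5.05% of all genes. PIS1, phosphatidylinositol synthase (66.2 against 323 and 230 CPM, -2.07 ± 0.41), and INO1, which makes inositol (76.8 against 217 and 206 CPM, -1.46 ± 0.37), were lower. Of the ergosterol genes ERG4 (44.9 against 306 and 204 CPM, -2.51 ± 0.43) and ERG26 (23.6 against 97.1 and 69.1 CPM, -1.84 ± 0.40) were lower and ERG5 (126 against 41.7 and 47.7 CPM, 1.51 ± 0.32) and ERG24 (60.3 against 24.8 and 25.1 CPM, 1.27 ± 0.35) higher. INO1 and ERG24 lost their call without either log-phase library and with the lawn and saturated libraries alone, as ERG5 did in the latter, ERG24 with DESeq2, and INO1 and ERG26 with plain totals. Of the sterol genes, 4 were higher and 3 lower without saturated replicate 2, and 10 higher and 1 lower with plain totals.

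**Figure D4:**
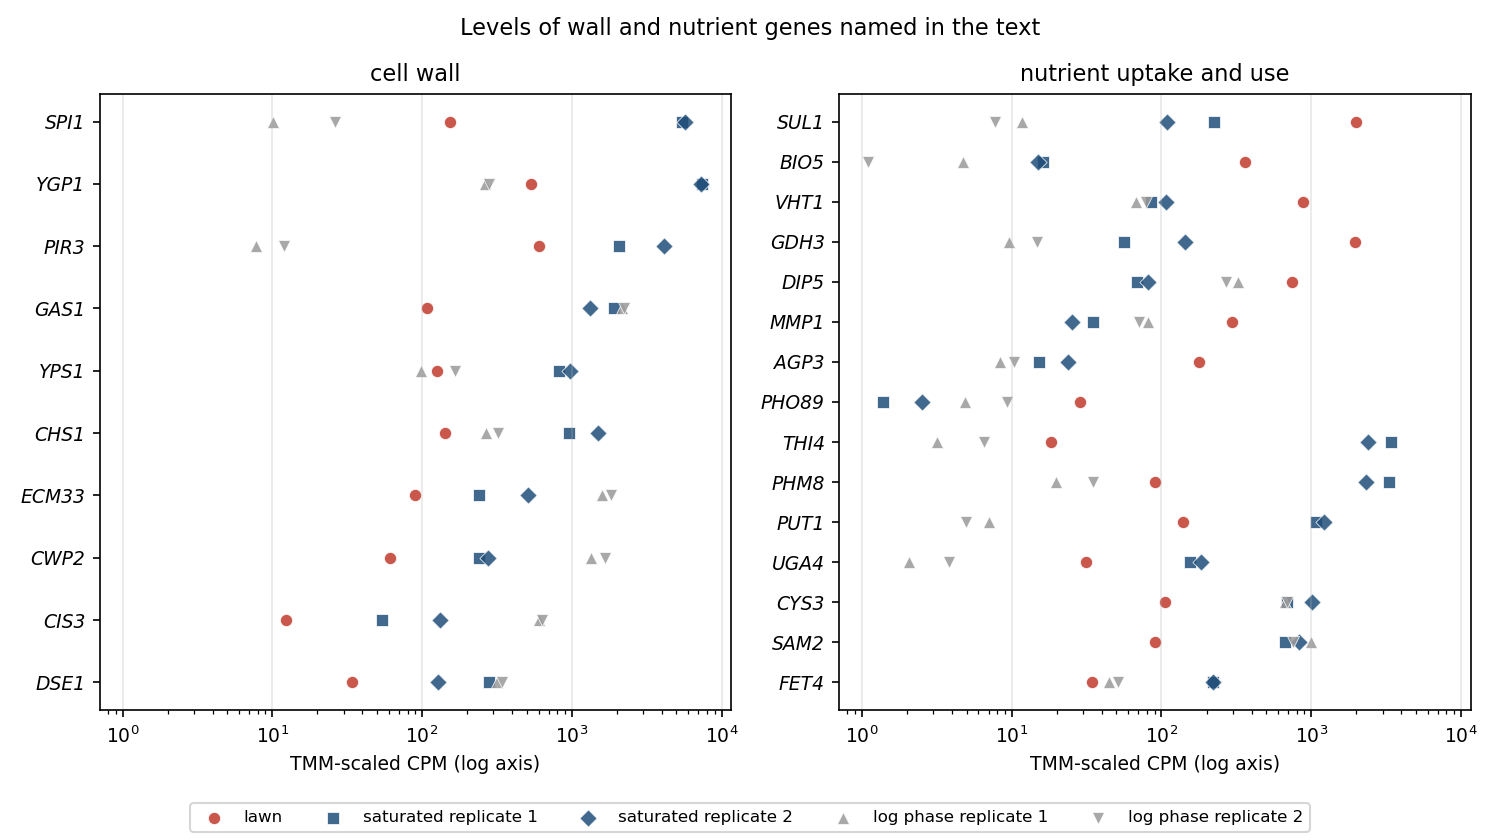
Scaled CPM (log axis) of wall genes and of nutrient genes in the lawn, both saturated libraries and both log-phase libraries, with 1 point per library. All wall genes drawn are among those called lower, so each lies below both saturated libraries in the lawn by that choice. CHS2, called higher (17.1 against 5.84 and 6.28 CPM), and EXG1, which did not pass (205 against 132 and 134 CPM), are not drawn. Among the nutrient genes, SUL1, BIO5, GDH3 and the permeases DIP5, MMP1 and AGP3 are higher in the lawn.

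The series concerns excised introns that remain in cells as linear RNAs, so introns were compared too. Intron reads made up 2.60% of gene and intron reads in the lawn, against 2.90% and 2.46% in the saturated libraries and 1.28% and 1.33% in log phase, so the lawn lay between the saturated pair. An intron was set against its host gene in the same library. By edgeR, 2 of 270 introns tested were higher relative to their host in the lawn (0.741%) and 3 were lower (1.11%), and 31 had an unadjusted p under 0.05.

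The introns of GLC7 (chromosome V, 432495 to 433958), which encodes the catalytic subunit of protein phosphatase 1, and UBC4 (chromosome II, 406628 to 407169), a ubiquitin-conjugating enzyme, were the higher ones. GLC7 had 118 intron reads per 100 host reads in the lawn against 40.4 and 54.8 in the saturated libraries (1.35 ± 0.34, edgeR adjusted p = 0.00909), and 3.25 and 4.01 in log phase. UBC4 had 68.7 per 100 against 23.3 and 27.2 (1.46 ± 0.37, edgeR adjusted p = 0.00909). At UBC4 the intron itself was not more abundant: 112 intron reads and 163 host reads in the lawn stood against 869 and 3725 reads in saturated replicate 1, and its intron level gave -1.61 ± 0.46, so the host was lower by more than the intron.

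The lower ones were the ECM33 intron, the second RPL7A intron and the ASC1 intron. ECM33 (chromosome II, 393123 to 394742) holds an intron known as a stable linear RNA of saturated cultures. It had 77.5 intron reads per 100 host reads in the lawn against 193 and 231 in the saturated libraries and 1.76 and 1.99 in log phase (-1.44 ± 0.39, edgeR adjusted p = 0.0130). Its host was itself lower in the lawn, and the intron level, scaled by gene reads alone, gave -3.57 ± 0.67 (edgeR adjusted p = 0.0522). That level passed the test with plain totals (edgeR adjusted p = 0.0185) and at a minimum of 50 reads (edgeR adjusted p = 0.0477). With log-phase replicates 1 and 2 omitted in turn, the level was -3.573 and -3.568. With saturated replicates 1 and 2 omitted in turn, it was -4.14 and -2.70. Each omission leaves 1 library in a group and less spread to test against, so passing there adds little support. The RPL7A intron (1531 per 100 host reads against 5025 and 6192, -1.83 ± 0.41) and the ASC1 intron (1143 against 4200 and 3194, -1.70 ± 0.46) lie in hosts that hold the small nucleolar RNA genes SNR39 and SNR24, whose reads cannot be told apart here from those of the intron. The ACT1 intron had 4.49 per 100 host reads in the lawn against 4.28 and 4.83, with no detectable difference.

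These intron calls were few and depended on the fit. With limma on log2 ratios none was higher and 3 other introns were lower, and with the lawn and saturated libraries alone none passed. Without saturated replicate 1 the second RPL7A intron was the sole call (-2.02), and GLC7, UBC4, ASC1 and ECM33 gave 1.11, 1.34, -1.48 and -1.58; without saturated replicate 2, 4 were higher and 2 lower and the ECM33 call was lost (-1.32). Without either log-phase library 2 were higher and 1 lower, with ASC1 and ECM33 lost. By intron level none of 270 passed with edgeR, 42 having an unadjusted p under 0.05. With a saturated replicate omitted, the spread came from the log-phase pair alone. The ECM33 intron level was then -4.14 without saturated replicate 1 and -2.70 without saturated replicate 2. Without log-phase replicate 1 or 2 the counts were none higher and 2 lower. The 104 tested introns of ribosomal protein genes had a median difference relative to host of 0.27 and the 166 others of -0.20, beside 0.05 for all.

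**Figure D5:**
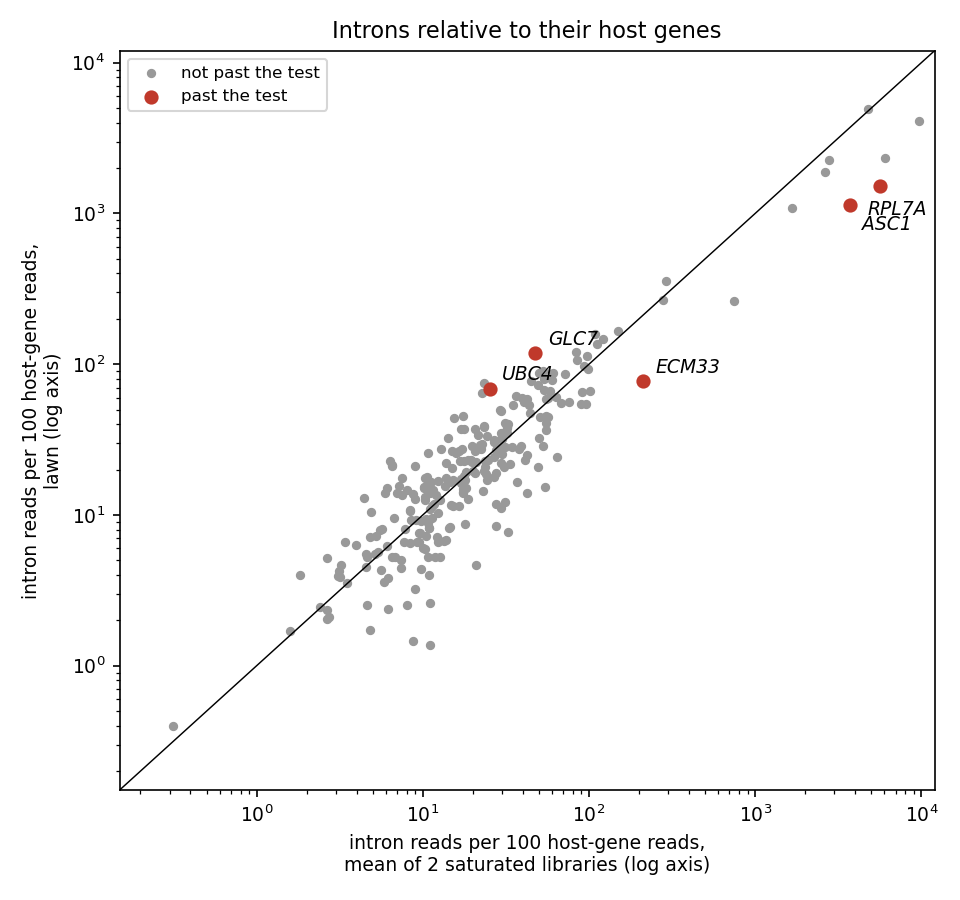
Intron reads per 100 host-gene reads (both axes log) in the lawn against the mean of the saturated pair, for the 261 of 270 tested introns above 0 on both axes, with a line at equality and the 5 introns past the edgeR test in red. GLC7 and UBC4 lie above the line and ECM33, RPL7A and ASC1 below it.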

How the data were processed

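RNA-seq libraries of 7 samples in 5 groups were used: lawn (1), saturated (2), log phase (2) and rapamycin for 1 h and 4 h (1 each), the last pair only in the fit. The submitters' processing notes name cutadapt 1.8, STAR 2.4 and the build R64 (sacCer3); the counting tool and its strand setting were not found in any label or header. Per the file headers, the authors deposited a read count for each gene and intron, treated as unnormalised because each value is a whole number and the library totals differ, and TPM for the same features. Deposited TPM served only to compare genes within a library. Symbols came from a RefSeq table of R64 by locus tag (5991 genes matched, 674 not), and 9 listed genes had no row.

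Genes were tested with edgeR 4.0.16 (R 4.3.3), quasi-likelihood, TMM, its low-count filter (5827 tested, 838 not), Benjamini-Hochberg adjustment at 0.05, two-sided, in 1 fit of all 7 libraries with 2 residual and 6.94 prior degrees of freedom. An exact permutation of 1 library against 2 cannot go below p = 0.333, so no such test is given. Introns with at least 10 reads in a library were tested relative to their host in 1 edgeR fit over gene and intron columns (270 tested, 30 not; spread fully pooled) and by level, scaled by gene reads. Alternatives were RLE scaling, plain totals, no filter, DESeq2 1.42.0, limma 3.58.1 on log2 ratios (pseudocount 0.5), the lawn and saturated libraries alone, no rapamycin libraries, protein-coding names only, a minimum of 50 intron reads, no introns holding small nucleolar RNA genes, and each replicate left out. Fits were tested on simulated counts with known changes. The simulation gave all groups the same means apart from those changes, with a fixed spread. It therefore does not cover the difference in RNA composition or the spread between the saturated libraries seen here.

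The members, the 47 gene lists and the tests were chosen with earlier results of these data known. The text names the 12 largest rises and falls past the test that have a standard symbol, average 10 CPM or more and have a lawn value outside the saturated range, in each list up to 4 members with the largest differences, every intron past the test, ECM33, ACT1 and the strain's deleted genes (168 genes); 98 more genes and the gene pairs were named after their values were seen. Counting intervals are not given for gene levels; the saturated replicates differed far more than sampling of reads allows (35.9 for chi-square over its degrees of freedom).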

Additional observations from a re-analysis of the deposited data

How the results depend on the processing

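Of the 222 named genes past the test, 147 kept their direction and call in each of the 11 settings. These genes were named from the same data, many for the size of their difference, so that share does not describe all called genes. A call kept without a saturated library says little, as stated above. The total of genes higher and lower was 1387 and 216 with plain library totals, 190 and 228 with the lawn and saturated libraries alone, 477 and 722 without saturated replicate 1, 698 and 938 without saturated replicate 2, 283 and 394 without log-phase replicate 1 and 293 and 396 without log-phase replicate 2. RLE scaling gave 347 and 490, DESeq2 267 and 470 and no filter 354 and 514. Introns relative to host were 2 higher and 3 lower, against 0 and 3 with limma, 0 and 0 with the lawn and saturated libraries alone, 2 and 1 without introns of hosts that hold small nucleolar RNA genes, and between 0 and 4 higher and between 1 and 2 lower with a replicate left out. By intron level, 0 and 0 became 9 and 2 with plain gene-read totals, 0 and 3 at a minimum of 50 reads, and between 0 and 11 higher and between 2 and 32 lower with a replicate left out. The causes of these shifts were not tested. Differences that turned sign, none past the test in the reversed direction, were NTH1 (0.12), ATH1 (0.56), PAU17 (0.64), STE3 (0.66), GPD1 (0.71) and HXT4 (0.50) with plain totals. With 1 replicate left out, the range was -0.338 to 0.009078 for ATH1, -0.7099 to 1.508 for PAU2, -0.7192 to 0.9372 for PAU17, -0.003951 to 0.3265 for PAU23, -0.5454 to 0.2654 for STE3, -1.841 to 0.7729 for ATO3, -0.421 to 0.468 for GPD1, -0.7042 to 0.3702 for HXT4 and -0.1029 to 0.0708 for the ACT1 intron relative to its host. Lawn depth limits low genes: 3 reads are the floor there. No paired analysis was possible because the lawn has 1 library with no replicate number, so the groups compared share fewer than 2 numbers.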

Other observations

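Genes of growth are set beside the 5.05% higher and 7.14% lower of all genes. Lower calls were below that share among ribosomal protein genes and near it among ribosome biogenesis genes. They were above it in the small cell-cycle and histone lists. The 138 ribosomal protein genes summed to 18360 CPM in the lawn, 23000 and 14430 CPM in the saturated libraries and 171400 and 145500 CPM in log phase; 1 was lower, RPS26B (57.3 against 306 and 172 CPM, -2.07 ± 0.49), which lost its call with plain totals, and none was higher. Leaving out saturated replicate 1 gave 4 higher and 2 lower, leaving out replicate 2 gave 1 and 9, and plain totals gave 17 and 0. Of 53 ribosome biogenesis genes 3 were lower, namely RRP42 (21.9 against 65.7 and 84.2 CPM), UTP15 (24.2 against 71.5 and 66.6 CPM) and NOP10 (24.2 against 89.3 and 52.8 CPM), and none was called with the lawn and saturated libraries alone or lower with plain totals; leaving out saturated replicate 1 gave 1 higher and 5 lower, and leaving out replicate 2 gave 3 and 6. Among 16 cell-cycle genes the G1 cyclins CLN1 (7.68 against 25.9 and 35.2 CPM) and CLN2 (6.50 against 26.4 and 45.2 CPM) were lower, and FAR1, an inhibitor of their kinase, was higher (37.8 against 8.63 and 8.79 CPM, 2.12 ± 0.38); both cyclins lost their call with plain totals and with the lawn and saturated libraries alone. Leaving out saturated replicate 1 gave 1 and 4, and leaving out replicate 2 gave 3 and 4. Of 10 histone genes, HHF2 (44.9 against 136 and 151 CPM) and HTA1 (115 against 367 and 320 CPM) were lower. Neither was called with plain totals or with the lawn and saturated libraries alone. STE6, the exporter of a-factor, was higher (168 against 58.4 and 60.3 CPM, 1.51 ± 0.34).

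Several open reading frames without a standard name stood with the largest rises; they were chosen after their values were seen. YGR067C stood at 1094 CPM in the lawn against 9.46 and 2.51 CPM in the saturated libraries (7.19 ± 0.62, edgeR adjusted p = 0.000453). YMR175W-A, which lies next to SIP18 by its systematic name, stood at 283 CPM against 1.39 and 5.03 CPM (7.0 ± 0.51), and YDL218W at 202 CPM against 1.95 and 0 CPM (7.01 ± 0.72). YKL107W (164 against 2.23 and 6.28 CPM) and YMR206W (106 against 2.23 and 3.77 CPM) were higher by 5.69 ± 0.49 and 5.35 ± 0.52. At all 5 the lawn value was above both saturated values.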
